A study of Mus musculus with 9 samples.

Results

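The 9 genes described here, Usb1, Yjefn3, Unc93b1, Trappc6a, Camta1, Zmat5, U2af1, Rpap1 and Syvn1, were listed at 0 or at a low level in every library of 1 or more Prm2 genotypes and at a clearly higher level in every library of the rest. They were chosen by this pattern, that is, on the normalized counts of the same 9 libraries of mouse testis and their 3 genotypes, as genes whose change was shared by the heterozygotes or found in the heterozygotes alone. They were 9 of the 38685 genes and loci in the table and 9 of the 14893 that passed the filter on low counts. All 9 passed that filter, and each could do so through the libraries in which it was high. Since the values of the 3 genotypes chose the genes, their levels and folds are given as a description, with no test.

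The data were 9 libraries of messenger RNA 3' ends from testes of C57BL/6 male mice, freed of the tunica albuginea. Protamine 2 (Prm2) is a small basic protein that replaces histones in the sperm nucleus, and the mice were wildtype (Prm2+/+), heterozygous (Prm2+/-) or Prm2-deficient (Prm2-/-) for an allele disrupted by gene editing, with 3 males per genotype. No other allele, treatment or age is given in the labels, and how the animals relate as litters is not given in the sources used here. The Prm2+/+ libraries served both comparisons with Prm2+/+, and the Prm2+/- libraries both comparisons with Prm2+/-, so no 2 of the 3 comparisons were independent.

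Recovered depth ran from 3629929 to 4490411 counts per library, and 19028 to 20526 genes and loci were detected. Prm2 itself stood at 33046 ± 5732 in wildtype, at 31891 ± 2287 in heterozygous and at 37809.8 ± 4344 in Prm2-deficient testes (normalized counts, mean ± SD, n = 3 each), and was called in no comparison (limma adjusted p = 0.953, 0.746 and 0.963 for Prm2+/- against Prm2+/+, Prm2-/- against Prm2+/+ and Prm2-/- against Prm2+/-). A 3' tag outside the disrupted part of a gene checks no genotype, so the labels were not checked by it. Elongating spermatid markers (Prm1, Prm2, Tnp1, Tnp2, Odf1, Akap4) summed to between 225233 and 244051 normalized counts in every library, whereas 6 epididymal markers summed to between 4.22 and 24.3. No gene of the 10 marker lists for germ cells, somatic testis cells, blood and epididymis was called in any comparison. Of all tested features, between 0.0806% and 0.181% were called per comparison.

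The 9 genes belong to different pathways. Usb1 trims the 3' end of U6 small nuclear RNA, U2af1 recognises the 3' splice site of introns, and Zmat5 is a protein of the minor, U12-type spliceosome, so these 3 genes serve RNA splicing. Rpap1 helps to assemble RNA polymerase II, Syvn1 (Hrd1) is the ubiquitin ligase of endoplasmic reticulum (ER)-associated protein degradation, Trappc6a is a subunit of the TRAPP complex that tethers transport vesicles, Unc93b1 carries nucleic-acid-sensing Toll-like receptors to endosomes, Camta1 is a calmodulin-binding transcription activator, and Yjefn3 holds a YjeF N-terminal domain. Testis is a tissue of abundant alternative 3' ends and splicing, and a 3' end library counts a gene only where reads fall on a transcript end assigned to it.

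The promoters of 4 genes are shown first, since genes that lay low in the same libraries could be compared for shared letters. Usb1 is 1 of those low in Prm2+/+, Zmat5 and Rpap1 are 2 of those low in Prm2+/-, and Syvn1 is the gene high in Prm2+/- alone. For these 4 the window lies before every annotated start of the gene. Each run is the 150 bases before the RefSeq start (GRCm38.p6), 5' to 3' on the gene's strand, with motif matches in capitals.
Usb1, chr8:95332134-95332283, plus strand: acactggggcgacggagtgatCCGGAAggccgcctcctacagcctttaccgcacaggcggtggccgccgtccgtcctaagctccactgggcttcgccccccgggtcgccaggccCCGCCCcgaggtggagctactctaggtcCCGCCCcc
Zmat5, chr11:4704506-4704655, plus strand: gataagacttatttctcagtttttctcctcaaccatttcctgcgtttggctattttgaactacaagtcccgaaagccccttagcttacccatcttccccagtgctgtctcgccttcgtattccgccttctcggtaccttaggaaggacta
Rpap1, chr2:119787538-119787687, minus strand: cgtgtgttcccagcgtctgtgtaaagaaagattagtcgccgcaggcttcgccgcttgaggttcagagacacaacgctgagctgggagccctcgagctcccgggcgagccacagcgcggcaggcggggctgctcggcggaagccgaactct
Syvn1, chr19:6046426-6046575, plus strand: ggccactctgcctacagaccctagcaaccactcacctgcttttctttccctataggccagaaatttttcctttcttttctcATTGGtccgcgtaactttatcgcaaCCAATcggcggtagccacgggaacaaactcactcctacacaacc

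The motifs searched, on both strands, were the CCAAT box (CCAAT), the GC box (GGGCGG), the TATA box (TATAAA), the cAMP response element (TGACGTCA) and an ETS core (CCGGAA), and a palindrome such as CCAATTGG counts on both strands. The window of Usb1 held 2 GC boxes and the ETS core, and that of Syvn1 held 2 CCAAT boxes, 1 on each strand. No searched motif lay in the windows of Zmat5 and Rpap1, whereas that of U2af1, low in the same 3 libraries, held 2 CCAAT and 3 GC boxes. Of the genes low in Prm2+/+ that had a window, Usb1 alone had no CCAAT box and alone held the ETS core. Yjefn3 held 1 CCAAT box, and Trappc6a and Camta1 held 2 each. The RefSeq starts of Yjefn3, Trappc6a, U2af1 and Camta1 lie 8729, 275, 128 and 108 bases inside the annotated gene. Their windows thus lie wholly or partly within the gene, and are counted in the numbers that follow. Of the 8 genes matched in the RefSeq table (Unc93b1 was not matched), 5 held a CCAAT box and 3 a GC box, against 24.5% and 28.6% of all 32851 windows of that length. None held the TATA box (7.57% of all windows) or the cAMP response element (1.36%), and 1 held the ETS core (9.23%). The 8 windows held between 6 and 19 CpG dinucleotides, against a median of 4 over all windows. These matches are letters in a window and say nothing of binding. The set of all windows was not limited to genes that passed the filter on low counts, as these 8 did, so the sets are unlike.

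The genes Usb1, Yjefn3, Unc93b1, Trappc6a and Camta1, were low in Prm2+/+ and high in both Prm2+/- and Prm2-/- testes. All values that follow are normalized counts, that is, counts divided by the library's size factor. Usb1 (ENSMUSG00000031792, GRCm38 chr8:95332284-95347507, plus strand), the U6 RNA exonuclease, stood at 0, 0 and 0 in the 3 Prm2+/+ libraries, at 108, 129 and 147 in Prm2+/- and at 103, 99.4 and 108 in Prm2-/-. In bulk testis RNA, fewer cells that express a gene and less RNA per cell cannot be told apart. No count of Usb1 was recovered from wildtype, and the lowest of the other 6 libraries held 98 counts. Taken against a floor of 3 counts per library, the other 6 libraries (116 ± 18.3, SD, n = 6) were at least 37.0-fold higher. Within those 6, the Prm2-/- libraries lay just below the Prm2+/- libraries without overlap, at 0.81 of their mean.

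Yjefn3 (ENSMUSG00000048967, chr8:69887788-69902712, minus strand), which lies on the same chromosome as Usb1, stood at 0 in all 3 Prm2+/+ libraries, at 98.9, 92.3 and 110.5 in Prm2+/- and at 90.6, 109 and 84.5 in Prm2-/-. The 2 groups that expressed it overlapped. Together they averaged 97.5 ± 10.4 (SD, n = 6), at least 31.2-fold above the floor.

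Unc93b1 (ENSMUSG00000036908, chr19:3935186-3949340, plus strand), the chaperone of endosomal Toll-like receptors, also stood at 0 in all 3 Prm2+/+ libraries, at 13.8, 17.4 and 23.0 in Prm2+/- and at 24.5, 16.2 and 21.1 in Prm2-/-. It rests on the fewest counts of the group, between 14 and 27 per library where it was detected. The mean of those 6 libraries was 19.3 ± 4.15 (SD), at least 6.18-fold above the floor.

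Trappc6a and Camta1 differ from these 3 in that they were detected in wildtype too, so all or none does not describe them. Trappc6a (ENSMUSG00000002043, chr7:19508395-19516145, plus strand), the vesicle-tethering subunit, stood at 14.3, 30.0 and 14.4 in Prm2+/+, at 145, 125 and 154 in Prm2+/- and at 122, 132 and 135 in Prm2-/-. Its highest wildtype library lay 4.07-fold below its lowest other library, and its mean in the other 6 libraries was 6.94-fold the wildtype mean. Camta1 (ENSMUSG00000014592, chr4:150917322-151861876, minus strand), the transcription activator and by far the longest of the 9 genes on the genome, stood at 49.4, 41.8 and 36.5 in Prm2+/+, at 108, 105 and 112 in Prm2+/- and at 122, 109.6 and 107 in Prm2-/-. It was the least divided of the 9, with a mean 2.6-fold that of wildtype and a gap of 2.13-fold between the nearest libraries.

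**Figure D1:**
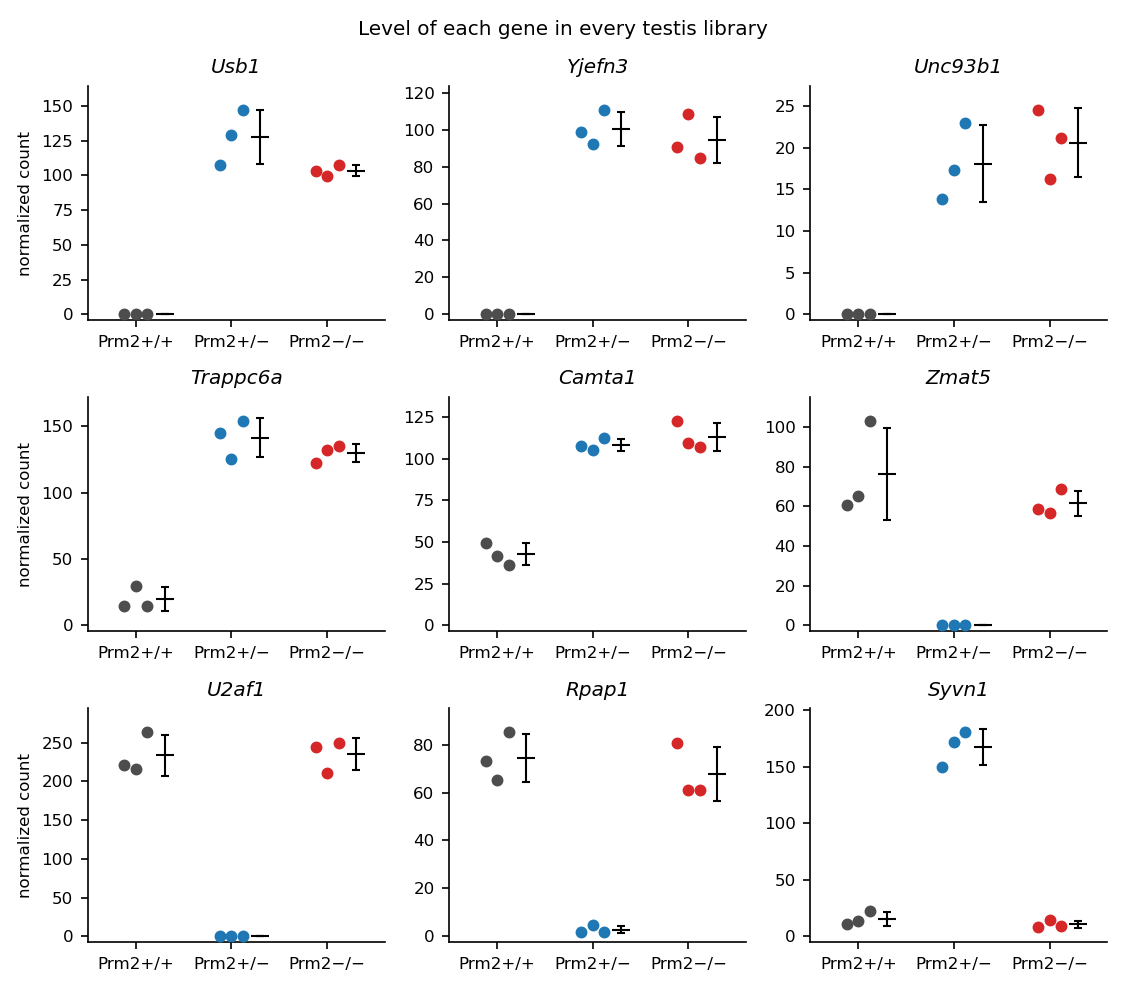
Normalized count (y axis, linear, own scale in each panel) of each of the 9 genes in the 3 Prm2+/+ (grey), 3 Prm2+/- (blue) and 3 Prm2-/- (red) testis libraries, 1 point per library, with the mean and SD of each genotype in black. In the first 5 panels Prm2+/+ is the low genotype, in the next 3 Prm2+/- is, and Syvn1 is high in Prm2+/- alone, between 149 and 180.3.

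Zmat5, U2af1 and Rpap1 were low in Prm2+/- alone, and their values in the 2 homozygous genotypes overlapped. U2af1 (ENSMUSG00000061613, chr17:31647081-31658892, minus strand), the small subunit of the splice factor U2AF, stood at 221, 215 and 263 in Prm2+/+, at 0, 0 and 0 in Prm2+/- and at 245, 211 and 249 in Prm2-/-. Its 2 homozygous genotypes overlapped, with means 1.01-fold apart. The 6 homozygous libraries averaged 234 ± 21 (SD), at least 84.0-fold above the floor of 3 counts per library in Prm2+/-.

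Zmat5 (ENSMUSG00000009076, chr11:4704678-4737669, plus strand), of the minor spliceosome, stood at 60.8, 65.4 and 103 in Prm2+/+, at 0 in all 3 Prm2+/- libraries and at 58.9, 56.8 and 68.6 in Prm2-/-. The third wildtype library was the highest. The 6 homozygous libraries averaged 68.9 ± 17.2 (SD), at least 24.7-fold above the floor.

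Rpap1 (ENSMUSG00000034032, chr2:119763304-119787537, minus strand), of the polymerase assembly pathway, stood at 73.2, 65.4 and 85.1 in Prm2+/+, at 1.98, 4.57 and 1.77 in Prm2+/- and at 80.6, 60.9 and 61.2 in Prm2-/-. It was not fully absent, since 2 to 5 counts were recovered per heterozygous library. Its homozygous mean was 25.6-fold its heterozygous mean, and the nearest libraries lay 13.3-fold apart. The heterozygous mean of 2.77 lies at the floor (2.79 in Prm2+/-), so the 25.6-fold is only rough.

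Syvn1 (ENSMUSG00000024807, chr19:6046576-6053712, plus strand), the ER ubiquitin ligase, ran the other way. It stood at 10.5, 13.9 and 22.1 in Prm2+/+, at 149, 172 and 180.3 in Prm2+/- and at 8.15, 14.2 and 9.50 in Prm2-/-. It was detected in all 9 libraries, its heterozygous mean was 12.8-fold that of the 6 homozygous libraries, and the nearest libraries lay 6.76-fold apart.

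The spread where a gene was high can be set beside what counting alone would give. For U2af1 the coefficient of variation over the 6 libraries was 8.99%, where Poisson counting gives 6.59%. For Yjefn3 the values were 10.6% and 9.92%, and for Unc93b1, the gene with the fewest counts, 21.5% and 22.3%. Usb1 (15.8% against 9.11%) and Zmat5 (24.9% against 12.2%) varied more.

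By the call rule (limma adjusted p under 0.05 and an absolute log2 fold change, LFC, over 0.5), which was also close to the measure that chose them, all 9 genes passed between Prm2+/- and Prm2+/+, where 0.0806% of the 14893 tested features did. Between Prm2-/- and Prm2+/+ 5 of the 9 passed (0.181% of all), and between Prm2-/- and Prm2+/- 4 did (0.175% of all). Non-overlapping groups were far more common in general, at 9.44%, 14% and 14.7% of the tested features in the 3 comparisons, against 9, 5 and 5 of the 9 genes. Nothing is read from these counts, since the same contrasts chose the genes.

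Steps of this kind were rare when they had to follow a whole genotype. A gap of at least 2-fold on value + 1 that set all Prm2+/+ libraries below all others was found for 11 features, 5 of them among the 9 genes, and no feature had one that set Prm2+/+ above all others. Prm2+/- lay below by such a gap for 7 features, with Bcas3, Flnc, Gpr160 and Pram1 beside U2af1, Zmat5 and Rpap1, and above for 2, Syvn1 and AC126262.2. Prm2-/- lay below for 5 features and above for 19, and neither set held any of the 9 genes.

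Steps that did not follow genotype were common. Ranked by level, 1783 of the 14893 tested features (12%) had their widest gap between neighbouring libraries at 5-fold or more on value + 1, and in 24 of these 1783 the gap parted 1 whole genotype from the other 6 libraries. Among those 24 were 7 of the 9 genes, all but Trappc6a and Camta1. Features with few counts reach such a gap easily.

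The genes whose levels over the 9 libraries were most like a given member were mostly the other members. Usb1 ran with Yjefn3 (Pearson r = 0.999 on log2 levels, 9 libraries), with the predicted gene Gm45442 (0.996) and with Unc93b1 (0.994). U2af1 ran with Zmat5 (0.998), Rpap1 (0.990) and Flnc (0.982), and opposite to Syvn1 (-0.977). With only 2 levels per gene, such an r mostly restates which libraries were low, and all points share the same libraries and size factors. Gm45442 stood at 0 in wildtype and at 13.7 to 20.3 elsewhere, and Flnc at 0 in Prm2+/- and at 7.73 to 17.2 elsewhere. Syvn1 had no member among its 3 most alike, and the first, Cd247 (0.913), ran only from 40.8 to 55.7. Among the genes most opposite to those low in wildtype, 4930412F12Rik stood between 70.3 and 92.2 in Prm2+/+ and between 34.5 and 42.2 in the other 6 libraries. For 2010109A12Rik the ranges were 343 to 382 and 151 to 196, and for AI429214, on chromosome 8, 319 to 336 and 233 to 256.

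Whether counts absent from a gene stood in a row beside it was asked next. For each gene the rows with the next lower and next higher locus number on its chromosome were taken, and the rows of annotated genes that overlapped it or lay within 20 kb. These were 39 rows, 26 of them tested and 12 overlapping the gene on the genome. None was called in any comparison by limma, at a lowest adjusted p of 0.842 between Prm2+/- and Prm2+/+, 0.186 between Prm2-/- and Prm2+/+ and 0.870 between Prm2-/- and Prm2+/-. At an unadjusted p under 0.05 there were 1, 3 and 2 of the 26, against 4.24%, 7.33% and 5.44% of all tested features. Of all tested features, 0.0806%, 0.181% and 0.175% were called in these comparisons, so 0 of 26 lies near the general share. By edgeR none was called either, and by DESeq2 1 was, Exoc3l2 between Prm2-/- and Prm2+/+.

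Near U2af1 the rows were almost without counts. Cbs and Cryaa, the only rows within 20 kb of it, held no count in any Prm2+/- library, and Cbs held 3.04 in 1 Prm2-/- library alone. The next numbered rows, Gm24970 and Sik1, lay 82038 and 185358 bases away. Gm24970 held no count in any library. Sik1 stood at 33.6, 47.5 and 49.5 in Prm2+/- against 34.4 to 70.7 in the 6 homozygous libraries. So the 234 normalized counts by which U2af1 was lower in Prm2+/- were not in these rows.

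Rpap1 was alike in this. Its 4 rows within 20 kb (Itpka, Ltk, Gm23814, Tyro3) summed to between 25.6 and 30.9 in Prm2+/- and between 28.7 and 39.6 in the homozygous libraries, while Rpap1 differed by 68.3. Trappc6a differed by 116, and its 4 nearby rows summed to between 69.4 and 85.1 in Prm2+/+ and between 61.2 and 140.4 elsewhere. The upper end of that range was set by Exoc3l2, which stood at 91.5 and 87.3 in 2 Prm2-/- libraries and between 7.6 and 12.9 in the other 7.

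For other genes the rows beside them held too many counts to tell. Ndufa13, a subunit of respiratory complex I, overlaps Yjefn3 by 8379 bases on the same strand and stood at 708, 682 and 909 in Prm2+/+, at 686, 659 and 810.3 in Prm2+/- and at 713, 727 and 714 in Prm2-/-. Its SD over the 9 libraries was 78.2, close to the 97.5 by which Yjefn3 differed, so a shift of that size could not be detected there. Tssk6, a sperm kinase that overlaps Yjefn3 by 529 bases on the other strand, ran from 2069 to 4809. Uqcr10, a respiratory complex III subunit that lies 336 bases from Zmat5, ran from 939 to 1330.4, against a difference of 68.9 for Zmat5. Near Syvn1, Fau ran from 1368 to 1801 and Znhit2 from 1401 to 2064. The 4 rows within 20 kb summed to between 2892 and 3049 in Prm2+/- and between 2936 and 3776 in the others. Mrpl49, which overlaps Syvn1 by 91 bases on the other strand, stood at 33.6, 61.2 and 61.9 in Prm2+/- and between 43.3 and 62.2 elsewhere.

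**Figure D2:**
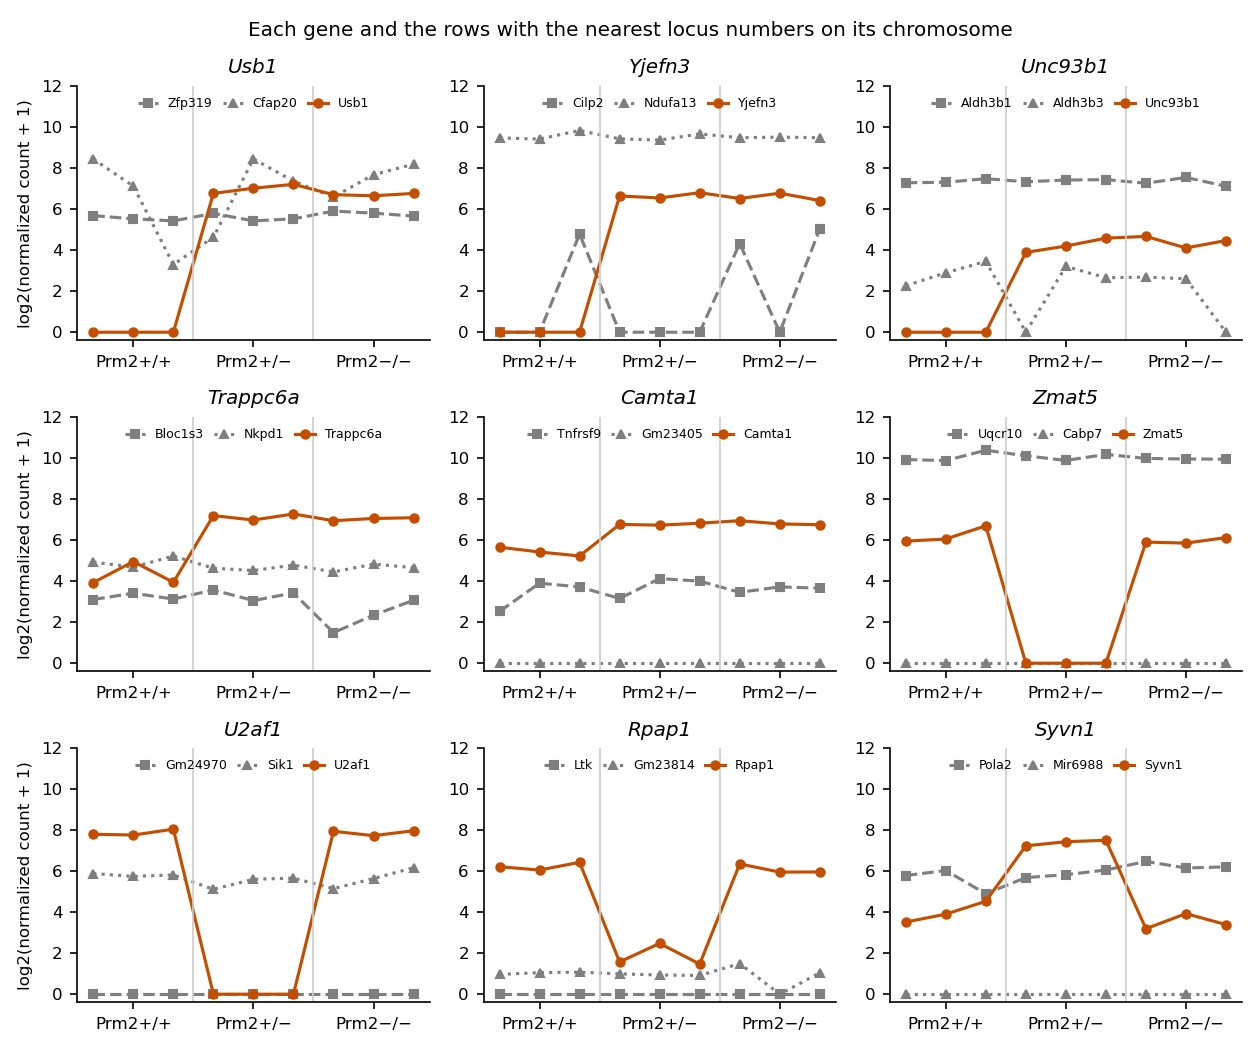
Level as log2(normalized count + 1) (y axis) of each of the 9 genes (orange) and of the rows with the next lower and next higher locus number (grey, dashed and dotted) in the 9 libraries, ordered on the x axis as replicates 1 to 3 of Prm2+/+, Prm2+/- and Prm2-/- between the vertical lines; lines only join the points. No grey row steps the opposite way at the same borders, although a shift the size of Yjefn3 or Zmat5 would hardly show in Ndufa13 or Uqcr10 on this scale, while Cfap20 beside Usb1 and Cilp2 beside Yjefn3 step between libraries of the same genotype.

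Several neighbours had uneven levels of their own that differed between libraries of 1 genotype. Ascc2, 18979 bases from Zmat5, stood at 7.6, 7.5 and 7.73 in Prm2+/+, at 15.8, 141 and 13.3 in Prm2+/- and at 134, 179.6 and 186 in Prm2-/-. The wildtype and Prm2-/- libraries did not overlap, and only the heterozygotes were mixed, with 1 library high. Between Prm2-/- and Prm2+/+ it had an LFC of 4.27 (limma adjusted p = 0.186), and in a fit of only these 6 libraries it was called (adjusted p = 0.000714). Without that Prm2+/- library, the second, Ascc2 was called between Prm2-/- and Prm2+/+ (adjusted p = 0.000224) and between Prm2-/- and Prm2+/- (0.00119). Cilp2, 101 bases from Yjefn3, stood at 26.5 in 1 Prm2+/+ library, at 19.0 and 31.7 in 2 Prm2-/- libraries and at 0 in the other 6. Cfap20, the next numbered row after Usb1, ran from 8.84 to 345 within Prm2+/+ alone and from 23.7 to 347 within Prm2+/-. For both rows the high libraries did not match those of the gene beside them.

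Each gene was then added to its nearest numbered rows. Some of these rows lie far off, with Pola2 82374 bases from Syvn1 and Sik1 185358 bases from U2af1. The other row added for each of these genes held no count. The sums of U2af1, Rpap1, Syvn1, Trappc6a and Camta1 with their neighbours still did not overlap between the libraries where the gene was low and those where it was high, at 2.69, 3.96, 1.55, 1.5 and 1.2 on the log2 scale. The sums of Usb1, Yjefn3, Unc93b1 and Zmat5 did overlap, at 0.75, 0.09, 0.13 and 0.05. A sum holds the gene itself, so overlap depends on the size and spread of the rows added. Where the gene was low, those rows averaged 43.5, 0.929, 63.0, 38.5 and 10.3 for the genes without overlap, in the order named. For the genes with overlap they averaged 210, 775, 170 and 1068. With all rows within 20 kb in place of the nearest numbered ones, the sum of Syvn1 turned to -0.090 and overlapped, and that of Camta1 fell to 0.18 without overlap. The sum of Usb1, which then leaves out Cfap20 at 72742 bases, no longer overlapped, at 0.46 on the log2 scale (500.8 to 691 in Prm2+/+ and 737 to 965 elsewhere). Without Usb1 the added rows, mostly Tepp, averaged 586 in Prm2+/+ and 688 elsewhere, so part of that step is theirs.

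**Figure D3:**
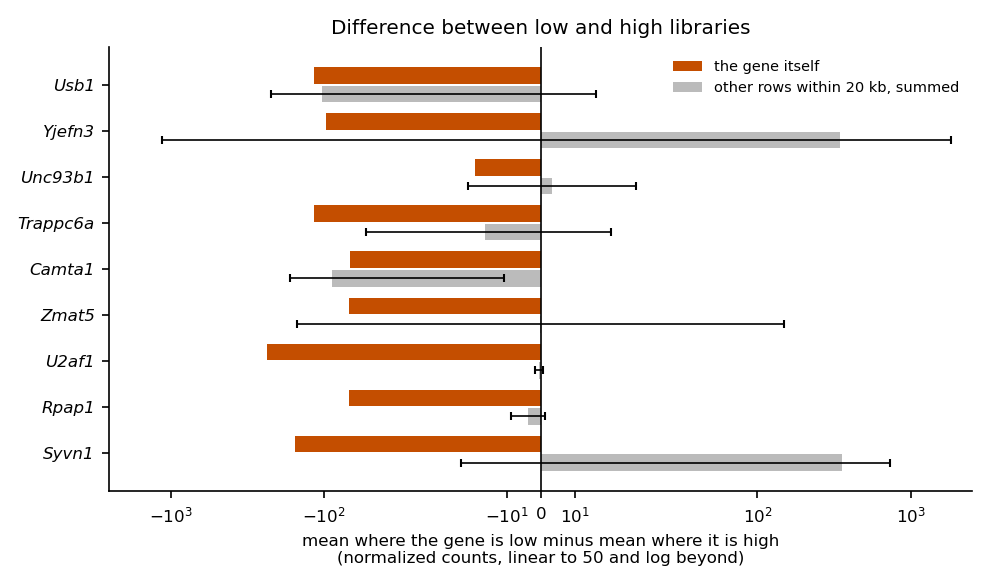
Difference in normalized counts (x axis, linear up to 50 on either side and logarithmic beyond) between the mean of the libraries where a gene was low and the mean of those where it was high, for the gene itself (orange) and for the other rows within 20 kb summed (grey, error bars the root of the summed squared SDs of both sets of libraries). A grey bar as long as the orange one but to the right would balance it. For U2af1 and Rpap1 the grey bars are short beside differences of 234 and 68.3 for the genes, as is that of Trappc6a, whereas for Usb1, Yjefn3, Unc93b1, Camta1, Zmat5 and Syvn1 each arm of the error bar is longer than the gene's own difference.

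Reads that fell outside every row, or that were assigned to several loci, were not analysed here, and the table holds no level per transcript. Not every annotated gene nearby had a row either, with 4 of 8 for Syvn1, 2 of 4 for U2af1 and 2 of 3 for Unc93b1. The sources used here do not say whether strand was used in counting, so reads of Mrpl49 and Syvn1, Cabp7 and Zmat5, or Tssk6 and Yjefn3 could not be told apart where they overlap.

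All 9 genes carried an assembled StringTie locus number, as did 95.7% of the 14870 tested features found in the annotation. In GENCODE M21 they had a median of 7 transcripts (3 to 13) and 6 distinct 3' ends (2 to 11), against medians of 4 and 4 over the tested features. Of the 9, 4 (44.4%) overlapped another gene on the genome, as did 55.0% of the tested features. The genes lay on 7 chromosomes, with Usb1 and Yjefn3 sharing chromosome 8 and Unc93b1 and Syvn1 sharing chromosome 19.

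No partner of the 9 genes in their pathways passed the test. In 9 lists, 107 genes other than the 9 were tested, and 0 were called in any comparison by limma. Over all 14893 tested features, 0.0806% were called between Prm2+/- and Prm2+/+, 0.181% between Prm2-/- and Prm2+/+ and 0.175% between Prm2-/- and Prm2+/-. With so few calls in general, 0 of 107 says little about the partners. At an unadjusted p under 0.05 there were 1 between Prm2+/- and Prm2+/+ (0.935% of the listed genes, against 4.24% of all tested), 7 between Prm2-/- and Prm2+/+ (6.54% against 7.33%) and 5 between Prm2-/- and Prm2+/- (4.67% against 5.44%). The lowest adjusted p were 0.842, 0.377 and 0.687. By edgeR and DESeq2 none was called either.

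Among splicing factors, 18 partners of U2af1 in 3' splice site recognition were tested, 12 of them with a positive LFC between Prm2+/- and Prm2+/+, at a median of 0.06 (0.01 over all features). Sf3b2, of the U2 particle, stood at 1174, 1181 and 1545 in Prm2+/+, 1266, 1219 and 978 in Prm2+/- and 1233, 1244 and 1271 in Prm2-/-. Of 10 partners of Zmat5 in the minor spliceosome, 4 had a positive LFC, at a median of -0.04. Zcrb1 stood between 489.5 and 724 in all 9 libraries. Of 14 genes of U6 RNA maturation beside Usb1, 7 had a positive LFC, at a median of -0.04. Larp7, by level the first of them, stood between 4038 and 5349.

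The partners of Rpap1 were 21 genes of RNA polymerase II and its assembly, 8 with a positive LFC between Prm2+/- and Prm2+/+, at a median of -0.05. The largest subunit Polr2a stood at 338, 350.4 and 403 in Prm2+/+, 346, 343 and 284 in Prm2+/- and 367, 355 and 440.3 in Prm2-/-. Of 22 genes of ER-associated degradation beside Syvn1, 11 had a positive LFC, at a median of -0.01. Vcp, the ATPase that draws substrates from the membrane, stood between 915 and 1049 in all libraries. Of 13 TRAPP subunits beside Trappc6a, 9 had a positive LFC, at a median of 0.03, and Trappc4 stood between 244 and 297. Of 6 tested genes of endosomal Toll-like receptor signalling, 2 had a positive LFC, at a median of -0.07. The Toll-like receptors of that list did not pass the filter on low counts, with no library above 8.84, and were not tested. The other family of Camta1 held 1 gene, Camta2 (LFC -1.79 ± 1.31, SE), and that of Yjefn3 held 3, all with a negative LFC, at a median of -0.11.

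**Figure D4:**
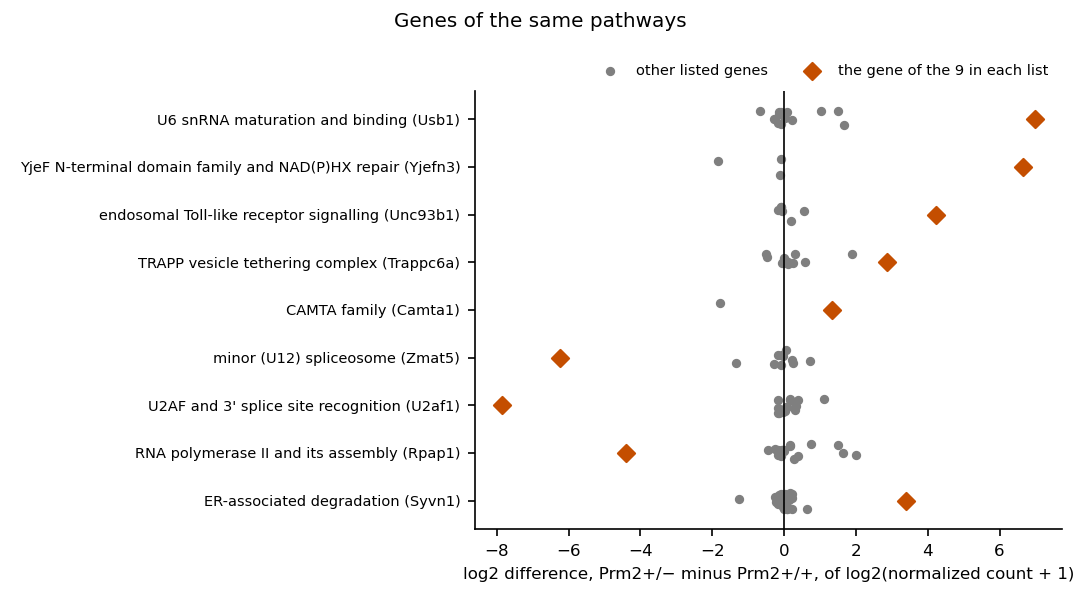
Log2 difference between Prm2+/- and Prm2+/+ (x axis) of the tested genes in the 9 pathway lists (grey points, 107 in all, shifted vertically at random) and of the 1 of the 9 genes that each list was built around (orange diamonds, chosen for this difference). The median grey point of the lists other than the CAMTA family lies between -0.11 and 0.06, while the diamonds lie between -7.87 and 7.

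In the lists too, single libraries stood apart. A gap of 5-fold or more on value + 1 was found for 12 of the 107 genes (11.2%), and in none did it follow a whole genotype. These genes were picked after their values were seen. Snrnp35, of the minor spliceosome, stood at 141, 129.7 and 139 in the second library of each genotype and between 9.89 and 24.3 in the other 6. Its partner Snrnp25 stood at 8.22 in the second Prm2+/- library and between 141 and 185 in the other 8. Lsm4, which binds U6 RNA, stood at 456, 32.1 and 7.73 within Prm2+/+, and Herpud1, an ER-associated degradation factor, at 532, 584 and 21.1 within Prm2-/-. Camta2 was at 0 in the second Prm2+/- library and between 27.6 and 60.8 elsewhere, and Gpn2, Polr2d and Polr2h, of the Rpap1 list, were all at 0 in the third Prm2+/+ library alone.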

How the data were processed

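Total RNA of testes was made into QuantSeq 3' libraries and sequenced as 50 bp reads on an Illumina HiSeq instrument. The submitters' processing notes name Trim Galore 0.4.5, HISAT2 2.1, StringTie 1.3.3, DESeq2 and the build GRCm38. The values deposited by the authors are a normalized signal, counts divided by DESeq2 size factors, in 1 table of genes and StringTie loci. Here they were divided by the smallest positive value of each library, which gave whole counts for 100% of values (tolerance 0.001), and size factors recomputed from these differed by at most 0.0107%. For the first Prm2+/- library the step lies close to 1, so wholeness was a weaker check there.

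Comparisons were made with limma 3.58.1 in R 4.3.3 (trend, genotype only, 9 libraries) on log2(value + 1), after filterByExpr, with Benjamini-Hochberg adjustment over 14893 features, called at adjusted p under 0.05 and LFC over 0.5. Fold changes on this scale understate low genes. The study's methods give 3 biological replicates per genotype. edgeR 4.0.16 and DESeq2 1.42.0 on recovered counts, TMM scaling, pseudocounts of 0.5 and 5, other filters, 6 libraries, a replicate block and leaving out each library were alternatives. The fit was tested on counts simulated with a common dispersion. These held no added steps between libraries of 1 genotype, so the fit was not tested against such steps. Positions come from GENCODE M21, which matched 99.6% of rows. Floors are 3 counts per library, and floors and Poisson values cover counting error only. The genes, the gene lists and the tests were chosen with earlier results of these data known. Named were the 9 genes, their neighbours, the 3 genes most like and most opposite to each, Prm2 and up to 3 genes per list by level, unless said otherwise.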

Additional observations from a re-analysis of the deposited data

How the results depend on the processing

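The 9 genes kept the direction of their steps under every scaling, pseudocount and left-out library tried. The low and high libraries of each gene did not overlap, so no pseudocount or left-out library could turn a step. The kept direction is thus no support for the steps. Of 324 recomputed LFCs of the 9 genes, 301 moved by less than the spread between libraries and 23 moved by more, all under another pseudocount, which sets the LFC of a gene at 0 (U2af1 between Prm2+/- and Prm2+/+ ran from -8.86 to -5.57). None of the steps changed sign, while 2 differences near 0, U2af1 between Prm2-/- and Prm2+/+ and Camta1 between Prm2-/- and Prm2+/-, did.

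The counts of called features depended on the fit. Between Prm2+/- and Prm2+/+, 9 were higher and 3 lower: under a minimum of 10 counts in each library 1 and 0 (genes with a 0 are then untested by construction), with DESeq2 29 and 30, with any count above 0 as the filter 8 lower, with only the 6 samples compared 6 lower. Between Prm2-/- and Prm2+/+, 23 were higher and 4 lower: with at least 10 counts 8 and 1, with DESeq2 101 and 30, with only 6 samples 47 higher, with any count above 0 8 lower. Between Prm2-/- and Prm2+/-, 22 were higher and 4 lower: with at least 10 counts 10 and 1, with DESeq2 88 and 22, with only 6 samples 45 and 7, with any count above 0 9 lower. Leaving out 1 library gave 6 to 39 and 3 to 15, 20 to 58 and 2 to 12, and 17 to 44 and 3 to 10, in the same order. Over 1.5 times the count came, for Prm2+/- against Prm2+/+, without Prm2+/+ replicate 1 (26 and 5), 2 (39 higher) and 3 (22 and 13), Prm2+/- replicate 1 (15 lower), 2 and 3 (13 lower each) and Prm2-/- replicate 1 (6 lower). For Prm2-/- against Prm2+/+ it came without Prm2+/+ replicate 1 (45 and 7), 2 (58 higher) and 3 (39 higher), Prm2+/- replicate 1 (35 and 7) and Prm2-/- replicate 1, 2 and 3 (12, 8 and 9 lower), while Prm2+/- replicate 2 left 2 lower. For Prm2-/- against Prm2+/- it came without Prm2+/+ replicate 3 (42 higher), Prm2+/- replicate 1 (44 higher) and 3 (35 higher) and Prm2-/- replicate 1 and 3 (10 lower each). The cause was not tested. Of the 9 genes, 8 or 9 passed between Prm2+/- and Prm2+/+ without 1 library, 6 with only 6 samples and 1 with at least 10 counts. With at least 10 counts 2 passed between Prm2-/- and Prm2+/+ and 0 between Prm2-/- and Prm2+/-.

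With the replicate number as a block, 3 features were called higher between Prm2+/- and Prm2+/+ (6 of the 9 genes passed), 14 higher and 1 lower between Prm2-/- and Prm2+/+ (3 of the 9 genes passed, against 5 without the block), and 12 and 2 between Prm2-/- and Prm2+/- (4 of the 9 genes, as without it). Same-numbered libraries deviated together no more than others (r from -0.04 to 0.04), so the numbers were not taken as a pairing.

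Of the neighbouring rows, 1 was called between Prm2-/- and Prm2+/+ by DESeq2 (Exoc3l2), and leaving out 1 library gave 0 to 1 in both comparisons with Prm2-/-: Ascc2 without Prm2+/- replicate 2 and Exoc3l2 without Prm2-/- replicate 3. With only the 6 samples compared, Ascc2 was called between Prm2-/- and Prm2+/+ (limma adjusted p = 0.000714). With the rows within 20 kb in place of the nearest numbered rows, the log2 step of the sum was 7.88 for U2af1, 1.70 for Rpap1, -0.090 for Syvn1, 1.23 for Trappc6a, 0.18 for Camta1 and 0.46 for Usb1, whose sum then no longer overlapped, since other rows enter. At 3 counts per library, levels of the genes at 0 under about 3 normalized counts were not detectable.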
